A study of Mus musculus with 2 samples.

Results

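Cones, the photoreceptors of daylight and colour vision, were followed here through 10 genes: the nuclear receptors Thrb and Rxrg, which regulate cone genes, and 8 genes of the cone light response, Opn1sw, Arr3, Gnat2, Gnb3, Gngt2, Pde6c, Pde6h and Cnga3. Every probe set whose platform annotation gave a single gene symbol from this set was taken, which gave 13 probe sets of 9 genes among 45037 probe sets and 18193 named genes on the array. For Cnga3 no probe set was analysed here. Wild-type retina was compared with Sox11-/- (Sox11 knockout) retina at embryonic day 18, both on a C57BL/6 background and from littermate embryos. Each genotype was represented by the RNA of 1 retina, amplified and hybridised to 1 array. Neither genotype was replicated, so the variation among animals is unknown, no test was possible, and each difference below separates 2 arrays. The labels give neither the deleted part of Sox11 nor whether the embryos differed in any other respect.

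In a cone, light changes the opsin, which turns on transducin, a G protein of alpha, beta and gamma subunits. Transducin relieves the inhibition of phosphodiesterase 6, the fall in cyclic GMP closes a cation channel, and arrestin ends the signal. Thyroid hormone receptor beta, made by Thrb, and retinoid X receptor gamma, made by Rxrg, are nuclear receptors of the developing cone that help to set which opsin it makes. In the mouse, the short-wavelength opsin of Opn1sw appears in development before the medium-wavelength opsin of Opn1mw. Mouse cones leave the cell cycle before birth, and most rods do so later.

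The RefSeq table of promoter windows (GRCm38.p6, 250 bases before to 50 after a transcription start) held 10 windows of 7 of the genes. The windows were searched on both strands for 3 strings: TAATCC, letters recognised by the homeodomain factors CRX and OTX2 of photoreceptors; AGGTCA, the half-site of nuclear receptors such as those of Thrb and Rxrg; and ACAAAG, a form of the motif of SOX proteins. Among the 10 windows, TAATCC was found in 2, those of Thrb and Gnat2, against 7.06% of all 32851 windows in the table. AGGTCA was found in 3 windows, of Thrb, Rxrg and Opn1sw, against 16.3% of all windows, and ACAAAG in 3, of Opn1sw, Pde6h and Cnga3, against 18.7%. A window is shown for 1 regulator and for 2 phototransduction genes that hold these letters, written 5′ to 3′ on the strand of the gene with the matches in capitals. A match is only a run of letters, and no binding was measured.
Thrb (chr14:17660710-17661009, plus strand): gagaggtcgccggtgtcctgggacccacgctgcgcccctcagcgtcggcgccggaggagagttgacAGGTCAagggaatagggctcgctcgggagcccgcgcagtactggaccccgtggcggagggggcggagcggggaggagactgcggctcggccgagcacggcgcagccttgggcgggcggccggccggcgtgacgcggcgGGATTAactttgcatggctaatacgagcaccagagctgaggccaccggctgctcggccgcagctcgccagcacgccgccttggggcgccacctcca
Opn1sw (chr6:29380464-29380763, minus strand): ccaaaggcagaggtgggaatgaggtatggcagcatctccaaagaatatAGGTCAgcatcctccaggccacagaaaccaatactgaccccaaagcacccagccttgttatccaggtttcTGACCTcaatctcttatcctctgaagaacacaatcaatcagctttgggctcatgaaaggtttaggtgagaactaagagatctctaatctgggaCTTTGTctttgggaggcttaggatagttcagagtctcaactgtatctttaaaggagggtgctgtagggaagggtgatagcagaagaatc
Gnat2 (chr3:108092816-108093115, plus strand): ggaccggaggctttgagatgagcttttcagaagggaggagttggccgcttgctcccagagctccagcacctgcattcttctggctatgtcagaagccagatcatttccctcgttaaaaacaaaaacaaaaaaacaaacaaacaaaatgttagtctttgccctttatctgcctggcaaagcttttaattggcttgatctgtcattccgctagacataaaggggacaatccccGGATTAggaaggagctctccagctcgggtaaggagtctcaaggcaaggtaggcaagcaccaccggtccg
Positions are counted from the start site, negative upstream, and give the first base of each match as written above, whichever strand it is on. The Thrb window holds AGGTCA at -184 and TAATCC, on the opposite strand, at -46. The other Thrb window in the table holds none of the 3 strings. In Opn1sw, AGGTCA lies at -202 and, on the opposite strand, at -132, and ACAAAG, also on the opposite strand, at -39. In Gnat2, TAATCC lies at -19 on the opposite strand. No matches overlapped.

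Values are the deposited probe set intensities. Ratios are knockout minus wild type of log2(intensity + 5), a scale that understates the change of dim probe sets. A probe set was counted if the higher of its 2 intensities reached 18.6, the median of both arrays together, and 23581 probe sets (52.4%) did. The Sox11 probe sets did not move alike: 5 of 6 were lower on the knockout array, and the log2 ratios ran from -3.64 to 1.08. Whether the probe sets at either end lie in the deleted part is not known, so they check the genotype only in part. The embryos also differed in sex-linked RNA. The X-inactivation RNA Xist gave 12.3 on the wild-type and 922.7 on the knockout array by 1436936_s_at, and the Y-linked Eif2s3y gave 214.0 and 4.7 by 1417210_at, so genotype and sex cannot be told apart here. Markers of neural retina were present on both arrays: all 7 measured genes of a list of 8 passed the filter on each, with summed intensities of 7474 (wild type) and 7953 (knockout). Markers of other tissues were brighter on the knockout array. The summed intensity went from 243.5 to 674.5 over 10 mesenchyme genes, from 365.5 to 803.6 over 13 macrophage genes, from 390.0 to 609.8 over 11 lens genes and from 315.1 to 459.6 over 12 pigment epithelium genes, and no probe set of these lists read exactly 0. A member that passes the filter only through the knockout array is positive by construction, so signs were counted over genes above it on both arrays. Of these, 1 of 2 mesenchyme, 7 of 7 macrophage, 4 of 5 lens and 3 of 4 pigment epithelium genes were positive. The positive share over all genes past the filter on either array was 47.7%. The negative mesenchyme gene was Pdgfra, from 156.2 to 74.9. The sum over 8 endothelial genes, 853.7 and 677.9, rests on Kdr, without which it was 180.5 in wild-type and 221.8 in knockout retina. The part of these tissues in the cone values was not tested.

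Of the 13 cone probe sets, 10 passed the filter, for 8 genes, and 9 of these were above it on both arrays. None of the 10 was 2-fold apart on this scale, a class that held 1.87% of all probe sets past the filter. With 1.5-fold taken instead, a step chosen after the values were seen, 3 of the 10 were apart, against 8.43% of all probe sets: Thrb and Pde6c were higher (6.29% of all probe sets were) and 1 probe set of Opn1sw was lower (2.15% were). In all, 7 of 10 cone probe sets had a positive ratio, against 54.8% of all probe sets past the filter; the dim Opn1sw probe set passed through the wild-type array alone. Across the 10, log2 ratios ran from -0.80 to 0.76. Since there is no replicate, the only yardsticks at hand are other probe sets on the same arrays. Ratios of probe sets for the same gene differed with a pooled SD of 0.26 over 5612 genes, and each member was also set beside the central 95% of the 2000 probe sets nearest to it in level. Neither is an error between animals. Of the 10 cone probe sets, 8 lay within that central range.

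**Figure D1:**
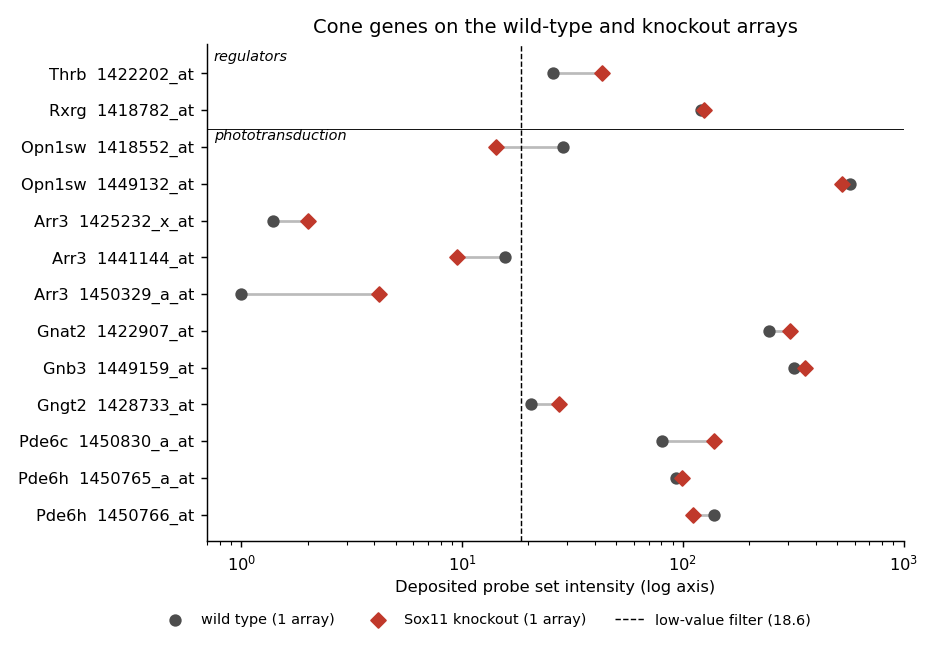
Intensity of each of the 13 cone probe sets (log axis) on the wild-type array (grey circles) and the Sox11 knockout array (red diamonds), with the filter at 18.6 as a dashed line. Thrb and Pde6c lie further right on the knockout array, the dim Opn1sw probe set further left, and all 3 Arr3 probe sets lie below the filter on both arrays.

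The 2 regulators gave different ratios. Thrb had an intensity of 25.9 in wild-type and 43.2 in knockout retina, which is 1.67 times the wild-type intensity and a log2 ratio of 0.64. Both values were above the filter, but not by much, and the ratio lay inside the central range of its level, from -0.65 to 0.95. Rxrg, the partner that thyroid hormone receptors can pair with on DNA, read 121.0 and 125.3, a log2 ratio of 0.048. The difference between the Rxrg intensities was 3.55% of the wild-type value, and its ratio lay close to the median of 0.037 at its level. Each gene was read by 1 probe set here, and which Thrb isoform the probe set detects was not examined, although only some isoforms are typical of cones.

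Rxrg is also made by some ganglion cells, and the ganglion cell markers were slightly higher on the knockout array. Of 12 measured ganglion cell genes, 10 were positive, against 47.7% of all genes past the filter. Their median log2 ratio was 0.20, against -0.012 over all genes, and their summed intensity went from 8280 to 9199. How much of the Rxrg signal comes from either cell type was not tested. In RNA of a whole retina, fewer cells of a type and less RNA per cell cannot be told apart.

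Opn1sw, the short-wavelength cone opsin, was read by 2 probe sets that differed in size of change. The bright one, 1449132_at, gave 569.9 in wild-type and 527.6 in knockout retina, a log2 ratio of -0.11. The dim one, 1418552_at, read 28.7 and 14.3, a log2 ratio of -0.80 that lay below the central range of its level (-0.67 to 1.05). Both were lower on the knockout array, but the knockout value of the dim one was below the filter, so that the wild type was at least 1.54-fold higher only by that bound. The platform annotation gives both probe sets the same source sequence, and the bright one, which had the higher level on both arrays, is the value used for the gene.

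The 3 transducin subunits were each somewhat higher on the knockout array. Gnat2, the alpha subunit that carries the signal to the phosphodiesterase, read 246.4 and 304.6, a log2 ratio of 0.30. Gnb3, the beta subunit of cones, read 319.5 and 357.5, a log2 ratio of 0.16. Gnat2 and Gnb3 were well above the filter on both arrays, and both ratios lay inside the central range of their level, which reached 0.48 for Gnat2 and 0.46 for Gnb3. Gngt2, the gamma subunit, read 20.5 and 27.4, a log2 ratio of 0.35. Both intensities lay just above the filter, and its central range ran from -0.64 to 1.01. Gnb3 is also made by ON bipolar cells. Of their markers, Pcp2 had a log2 ratio of 0.86. The 4 passing Trpm1 probe sets ran from -0.72 to 0.72, with -0.19 for the brightest. The 2 of Prkca ran from -0.24 for the brighter to 0.023. Of 7 bipolar cell genes above the filter on both arrays, 5 were lower and 2 higher, with a median of -0.21. Among all genes past the filter on either array, 52.1% were lower. Over 11 bipolar cell genes of all kinds, the summed intensity of 640.7 (wild type) and 504.6 (knockout) rests on Irx5, without which it was 333.4 and 334.5. The part of bipolar cells in the Gnb3 signal was not tested.

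The subunits of the cone phosphodiesterase did not move together. Pde6c, the catalytic subunit that breaks down cyclic GMP, gave 80.3 in wild-type and 139.0 in knockout retina, 1.73 times the wild-type intensity. Its log2 ratio of 0.76 was the highest of the cone probe sets and lay above the central range of its level (-0.52 to 0.66). Its probe set has the suffix _a_at, given to probe sets that match several transcripts of a gene. Pde6h, the inhibitory subunit that holds the enzyme in check, was read by 2 probe sets of opposite sign. The brighter, 1450766_at, read 139.2 and 110.9, a log2 ratio of -0.32. The other, 1450765_a_at, read 93.3 and 98.9, a log2 ratio of 0.080. Because the signs differ, these arrays give no single direction for Pde6h. The pooled SD of 0.26 describes single ratios about the mean of their gene, and a gap between 2 ratios spreads more widely.

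Arr3, cone arrestin, stayed below the filter with all 3 probe sets. Its wild-type and knockout intensities were 15.6 and 9.5 for 1441144_at, 1.0 and 4.2 for 1450329_a_at, and 1.4 and 2.0 for 1425232_x_at. At these levels no fold can be given and the sign differs between the probe sets. Arr3 is X-linked, and the embryos differed in Xist. The opsin of the other mouse cone pigment, Opn1mw, was also below the filter, at 2.6 and 7.6.

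**Figure D2:**
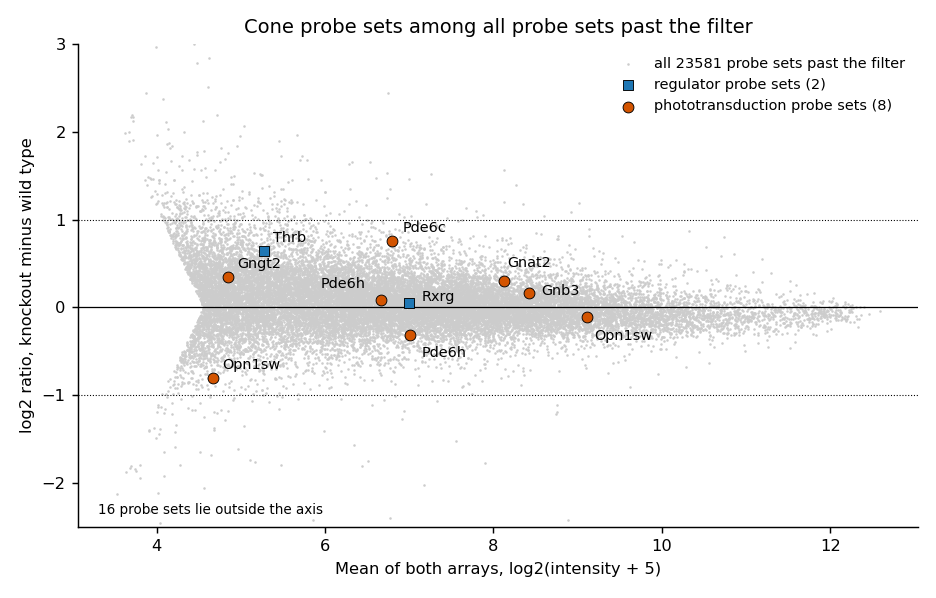
Log2 ratio of knockout over wild type (vertical axis, with dotted lines at 2-fold) against the mean log2(intensity + 5) of both arrays for all 23581 probe sets past the filter (grey), the 2 regulator probe sets (blue squares) and the 8 phototransduction probe sets (orange circles); 16 probe sets lie outside the axis. No cone probe set reaches either dotted line, and Pde6c and the dim Opn1sw probe set stand nearest the edges of the grey cloud.

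As groups, regulators and phototransduction genes overlapped. With each gene taken at its brightest passing probe set, the median log2 ratio was 0.34 over the 2 regulators and 0.23 over the 6 phototransduction genes past the filter, against -0.012 over all 11557 genes past it. The difference between the groups was 0.11, and its error is unknown. Among the phototransduction genes, 4 of 6 had a positive ratio, against 47.7% of all genes, and their ratios ran from -0.32 for Pde6h to 0.76 for Pde6c, which spans both regulators. The median of the regulators is the midpoint of Thrb and Rxrg and rests on Thrb: with the filter at 109.4, which Thrb does not reach, it is 0.048, and the difference turns to -0.11.

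Cone subunits were then set beside the rod subunits of the same role. Of 9 such pairs, 4 had both genes past the filter. With each gene at its brightest probe set, the cone gene had the higher ratio in all 4. In 1 of these, the rod gene Pde6b passed through the wild-type array alone, which fixes its sign, so the count is not a result by itself. Pde6b, a catalytic subunit of the rod phosphodiesterase, read 36.5 and 10.8, a log2 ratio of -1.39, so that Pde6c lay 2.15 above it. The Pde6b value in the knockout was below the filter, and with it set to 18.6 the gap is 1.57. Gngt1, the rod transducin gamma subunit, read 49.5 and 28.5, a log2 ratio of -0.70, which is 1.05 below that of Gngt2. That gap ran from 0.88 to 1.30 over the 3 passing Gngt1 probe sets. The remaining 2 gaps were small or depended on the probe set. Gnb1 is made in most cells besides rods, and it read 552.5 and 567.7, a log2 ratio of 0.039 against 0.16 for Gnb3; the other passing Gnb1 probe set would widen that gap of 0.12 to 0.75. Pde6g, the rod inhibitory subunit, read 88.6 and 60.3, a log2 ratio of -0.52, which is 0.20 below Pde6h. That gap ran from -0.14 to 0.60 over the probe sets of both genes, so its sign is not settled.

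Pairs with a member below the filter give only 1 side. Sag, the rod arrestin, read 246.7 and 42.8, while its cone partner Arr3 was too faint to compare. Gnat1, Pde6a and Cnga1 were below the filter on both arrays, at 7.2 and 5.6 for Gnat1, 6.2 and 4.7 for Pde6a and 0.9 and 0.6 for Cnga1. Cngb1, a channel subunit of rods with no cone partner in these pairs, had a log2 ratio of -0.86, with a bound of 1.23-fold. Over the 6 rod genes past the filter the median was -0.78, but Pde6b and Cngb1 passed through the wild-type array alone, which fixes their sign. Over the 4 rod genes above it on both arrays the median was -0.61, with 3 of 4 negative. Of all genes past the filter on either array, 52.1% were negative.

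**Figure D3:**
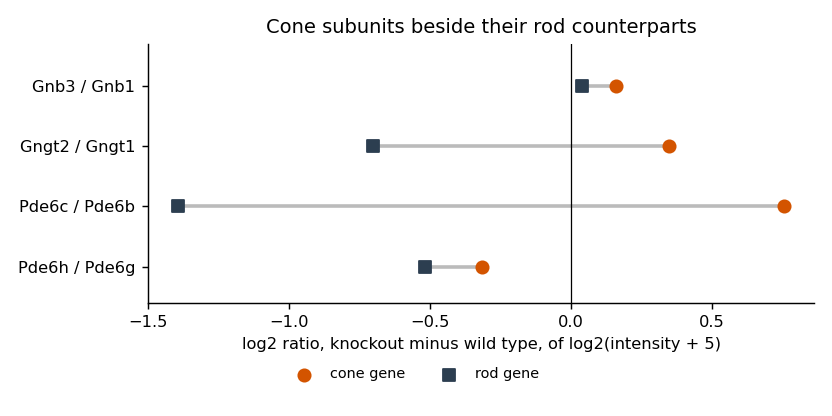
Log2 ratio, knockout minus wild type, of the cone gene (orange circles) and the rod gene (dark squares) in the 4 pairs with both genes past the filter, each at its brightest probe set. The gap is widest for Pde6c and Pde6b, at 2.15, then for Gngt2 and Gngt1, at 1.05, and small for the other pairs. Pde6b passed the filter through the wild-type array alone, which fixes its sign.

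Further genes of the light response, many of them shared by rods and cones, gave both signs. Of 22 genes listed, 20 had a named probe set and 14 passed the filter; 9 were lower and 5 higher on the knockout array, with a median of -0.12 and none 2-fold apart, a class that held 1.35% of all genes. Of the 12 above the filter on both arrays, 9 were lower, against 52.1% of all genes past the filter on either array. The median of these 12 was -0.18. Pdc, phosducin, which binds transducin beta and gamma subunits, read 1285.1 and 754.4, a log2 ratio of -0.76. Aipl1, a chaperone of phosphodiesterase 6, read 123.2 and 73.0, a log2 ratio of -0.72, and its other probe set gave -0.25. These 2 serve rods as well as cones, so their values do not speak of cones alone. Pde6d, a binding protein for prenylated subunits, had a log2 ratio of -0.37. Slc24a2, the sodium-calcium exchanger of cones, had 0.49, but its wild-type value of 12.3 was below the filter and the bound is only 1.04-fold. Cngb3, the beta subunit of the cone channel, was well measured and read 131.2 and 115.9, a log2 ratio of -0.17.

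Genes around the hormone receptors were measured too. Of 16 listed genes for thyroid hormone transport, activation and receptor function, 12 had a named probe set and 8 passed the filter. Of these 8, 6 were lower, against 52.1% of all genes past the filter, and 2 were higher. Their median was -0.22, against -0.012 over all genes. Rxrb, a retinoid X receptor made in most tissues, read 319.7 and 264.0, a log2 ratio of -0.27. Crym, a thyroid hormone binding protein, also had -0.27, from 1131.4 to 937.3. Slc16a10, a transporter of thyroid hormone and aromatic amino acids, had -0.25. Klf9, a target of thyroid hormone in brain, had -0.24 by its brightest probe set, while its 6 passing probe sets ran from -0.33 to 0.97. Dio2, the deiodinase that activates the hormone, was below the filter with each of its probe sets.

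Transcription factors that set photoreceptor fate were mixed. Of 22 listed, 20 passed the filter, 12 lower and 8 higher, with a median of -0.068. Sall1 and Onecut1 passed through the knockout array alone, which fixes their sign. Of the 18 above the filter on both arrays, 12 were lower and 6 higher, with a median of -0.077. Among all genes past the filter on either array, 52.1% were lower. On the log2(intensity + 5) scale, 2 of the 20 were at least 2-fold apart, a class that held 1.35% of all genes. The first, Sall1, read 11.1 and 30.2, a log2 ratio of 1.13, but its bound was only 1.62-fold. Sall1 is also made by microglia, and their part in that reading was not tested. The other was Nrl, which directs precursors to the rod fate and away from cone genes, at -1.12, from 632.8 to 289.0. Samd11, a nuclear protein of photoreceptors, read 85.8 and 43.0, a log2 ratio of -0.92. Onecut1, which acts with OTX2 on a Thrb enhancer in cone and horizontal cell precursors, had 0.76, from 14.1 to 27.4, and a bound of 1.47-fold. Its relative Onecut2 read 78.9 and 120.4, a log2 ratio of 0.58, with all 3 probe sets between 0.21 and 0.94. Otx2 and Crx act in both photoreceptor types. Otx2 was nearly level, at -0.072. Crx had -0.26 by its brightest probe set, from 958.4 to 800.7, and 0.018 by the other. Rorb, a nuclear receptor needed for rod fate and for the short-wavelength opsin, had 3 probe sets between 0.15 and 0.44.

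**Figure D4:**
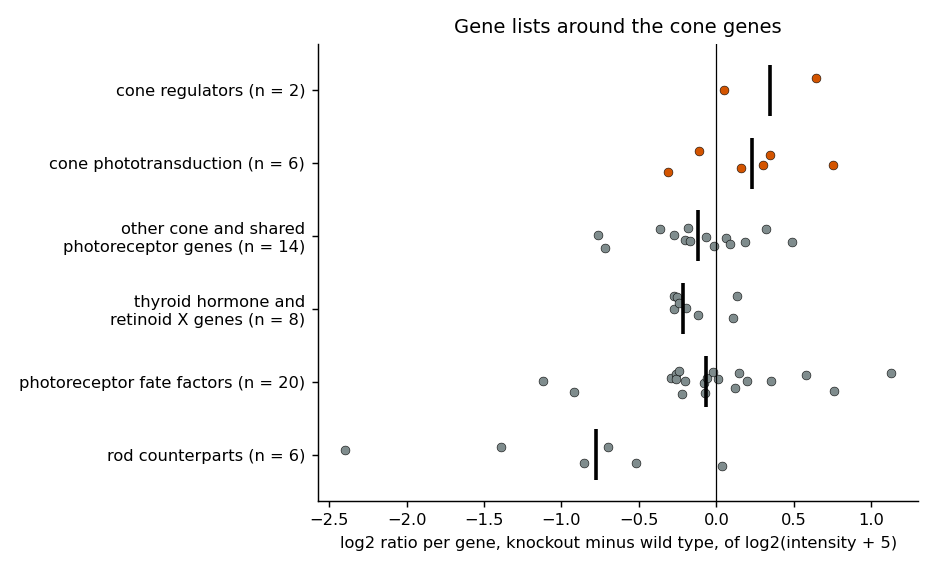
Log2 ratio per gene, knockout minus wild type, for genes past the filter in 6 lists, with the median of each as a black bar and the cone genes in orange. The medians are 0.34 for cone regulators, 0.23 for cone phototransduction, -0.12 for other cone and shared photoreceptor genes, -0.22 for thyroid hormone and retinoid X genes, -0.068 for fate factors and -0.78 for rod counterparts. Some genes passed through 1 array alone, which fixes their sign. Over genes above the filter on both arrays, the medians are -0.18 for other cone and shared genes, -0.077 for fate factors and -0.61 for rod counterparts, and unchanged for the rest.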

How the data were processed

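RNA from 1 retina of each genotype was measured on 1 Affymetrix array. Per the labels' protocols, RNA was extracted with a column kit, primed with oligo-dT, amplified and labelled with biotin. The deposited values are linear probe set intensities as the authors scaled them; the software is not given in the sources used here. Without the outer 2% at each end, the means were 99.1 and 99.3, so both arrays appear scaled alike. Their number limits the precision.

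The 64 control probe sets were left out. The pseudocount of 5 and the filter of 18.6 are the pooled 25th percentile and median, and no further normalization was applied. Probe sets with 1 gene symbol (34945) were named from GEO's platform annotation. A gene took its brightest passing probe set. Where 1 array was below the filter, the brighter intensity over 18.6 is given as a bound. Ratios, medians and counts were computed with Python 3.11.15, NumPy 2.4.6, pandas 2.3.3 and statsmodels 0.14.6, and tested on simulated data.

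The members and gene lists were chosen with earlier results of these data known. Genes were named by rule: all members and all rod counterparts. Of the light response, hormone and fate factor lists, the genes 2-fold apart and up to 4 with the largest absolute ratios were named. The rule was not applied to the marker lists, most of whose genes 2-fold apart are not named here. Onecut2, Otx2, Crx, Rorb, Cngb3, Opn1mw, Dio2 and the marker genes Pcp2, Trpm1, Prkca, Irx5, Kdr and Pdgfra were named after their values were seen. The alternatives were centring, quantile normalization, loess (span 0.3), other pseudocounts and filters, no probe sets with s, x or a suffix, and the median over probe sets.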

Additional observations from a re-analysis of the deposited data

How the results depend on the processing

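Over 5 settings of scaling and pseudocount, none of the 10 passing cone probe sets changed sign, and 1 of the 50 values moved by more than the pooled SD of 0.26: the dim Opn1sw probe set, from -0.80 to -0.52 with the pseudocount at the pooled median. The count of cone probe sets at least 2-fold apart was 0, and became 1 with no pseudocount and 3 at 1.5-fold. The regulator median of 0.34 was 0.048 with the filter at the pooled 75th percentile, since only Rxrg then passed, and otherwise lay between 0.26 and 0.39. The phototransduction median lay between 0.16 and 0.23. Regulators minus phototransduction genes ran from -0.11 to 0.19 and was negative with that filter and without Gngt2 and Thrb, an alternative added after the data were seen. The gap between Pde6c and Pde6b ran from 1.58 to 2.55, and that between Gngt2 and Gngt1 from 0.77 to 1.22. No paired analysis was possible because each genotype has 1 array, and for the same reason no replicate could be left out. Dim probe sets (Thrb, Gngt2, Arr3, 1 of Opn1sw) limit what can be read.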
